A study of Mus musculus with 10 samples.

Results

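Autophagy and lysosome genes were examined in the livers of 10 mice, 5 of which drank ethanol on a high-fat diet and 5 of which ate that diet alone. The set holds 34 genes, chosen by symbol for their roles in making the autophagosome or in the lysosome, and all 34 had a probe that passed the filter on dim signals, among 15089 genes tested. Together 49 probes of the array read them, of which 48 passed. The rule that lists them uses no measured value, but the members were chosen with earlier results of these data known.

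All mice were male C57BL/6J, an inbred strain, bought at 7 weeks of age and given 1 week to settle. Both groups then ate a 60% high-fat diet, at 5.5 kcal per g, for 4 months. The ethanol group took ethanol in its drinking water during the last 3 of these months, with a daily intake of 5 g/kg for the opening week and of 10 g/kg from then on, while the control group took none. Each group held 10 mice, of which 5 were drawn at random for arrays, so that each array is 1 animal and n = 5 counts mice. No group on a lean diet and no group on ethanol with a lean diet was among the samples, so every value compares ethanol with no ethanol in livers already under a fat-rich diet. The comparison asks how drinking ethanol altered liver gene expression in mice on such a diet.

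Autophagy encloses cytoplasm, damaged mitochondria or lipid droplets in a double membrane, the autophagosome, which then fuses with a lysosome whose hydrolases break the contents down. ULK1 and the BECN1 complex start the process, ATG8 proteins such as LC3 are attached to the growing membrane by a conjugation machinery, and receptors such as SQSTM1 bind both ATG8 proteins and cargo. TFEB and TFE3 are transcription factors that switch on lysosomal and autophagy genes through a short element around CACGTG. In hepatocytes this route recycles mitochondria and fat stores, and ethanol and fat-rich diets are both known to alter it. Arrays measure messenger RNA, and autophagy is regulated largely at the level of proteins, so no value here measures autophagic flux.

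The promoters of 28 of the 34 members were matched by symbol in the RefSeq table of build GRCm38.p6, as 250 bases before to 50 bases after the start of the gene. The letters CACGTG, which read the same on both strands, occurred in at least 1 promoter of 10 of these 28 members (35.714%). The share was 8.093% of 27025 genes with a promoter in the table. Shares count genes, and a gene with several promoters had more chances of a match. Tfeb had 3 promoters, and Tfe3 and Ctsa had 2 each. The longer TCACGTGA, which contains CACGTG, occurred in 4 of 28 (14.286%) against 1.125%. The full element, in which TCACGTGA has a G before it and a C after it, occurred in 0 of 28 against 0.370%. The promoters of 4 lysosomal members with matches and that of Ulk1, which had the highest difference between groups and no match, are printed 5′ to 3′ on the strand of the gene, with every CACGTG in capitals.

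Lamp1, chr8:13158911-13159210, plus strand: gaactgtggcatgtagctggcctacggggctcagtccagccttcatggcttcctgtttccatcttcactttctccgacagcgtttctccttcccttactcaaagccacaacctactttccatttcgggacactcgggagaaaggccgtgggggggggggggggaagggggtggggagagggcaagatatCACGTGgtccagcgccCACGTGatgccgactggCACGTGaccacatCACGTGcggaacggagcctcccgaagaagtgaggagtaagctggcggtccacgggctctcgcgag
Mcoln1, chr8:3500269-3500568, plus strand: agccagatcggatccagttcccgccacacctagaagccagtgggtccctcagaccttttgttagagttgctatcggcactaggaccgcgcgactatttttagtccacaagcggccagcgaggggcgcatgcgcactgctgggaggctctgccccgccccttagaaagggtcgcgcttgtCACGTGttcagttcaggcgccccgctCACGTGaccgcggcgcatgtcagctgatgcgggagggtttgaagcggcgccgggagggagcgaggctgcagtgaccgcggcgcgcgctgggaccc
Ctsd, chr7:142387778-142388077, minus strand: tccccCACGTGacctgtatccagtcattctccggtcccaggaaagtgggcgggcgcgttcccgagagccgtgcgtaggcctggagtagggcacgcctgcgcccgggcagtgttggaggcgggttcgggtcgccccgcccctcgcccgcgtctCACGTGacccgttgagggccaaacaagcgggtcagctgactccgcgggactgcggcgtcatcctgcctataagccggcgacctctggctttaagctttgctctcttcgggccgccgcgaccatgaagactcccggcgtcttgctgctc
Ctsl, chr13:64370471-64370770, minus strand: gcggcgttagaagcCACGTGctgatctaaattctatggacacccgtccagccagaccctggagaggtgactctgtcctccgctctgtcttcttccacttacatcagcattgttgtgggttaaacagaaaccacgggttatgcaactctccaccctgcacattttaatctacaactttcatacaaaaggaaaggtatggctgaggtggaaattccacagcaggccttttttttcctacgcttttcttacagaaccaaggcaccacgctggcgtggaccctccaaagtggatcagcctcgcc
Ulk1, chr5:110810032-110810331, minus strand: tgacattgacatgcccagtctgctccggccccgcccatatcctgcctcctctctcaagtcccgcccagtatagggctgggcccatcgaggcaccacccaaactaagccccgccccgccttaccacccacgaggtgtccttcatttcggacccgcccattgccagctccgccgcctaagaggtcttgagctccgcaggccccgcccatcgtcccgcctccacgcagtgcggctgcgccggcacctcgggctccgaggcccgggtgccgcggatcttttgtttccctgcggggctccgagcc

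Lamp1 held 4 matches within 61 bases of its start, Mcoln1 2 matches at 71 and 45 bases before the start, and Ctsd 2 matches at 245 and 98 bases before it. The 1 match of Ctsl lay 236 bases before its start. The other members with a match were Atg3, Atg5, Atg7, Atg14, Bnip3 and Ctsa. A match describes the letters only, and no binding was measured. The median difference between groups, as log2 ethanol minus control, was 0.088 over the 10 members with CACGTG, of which 8 were positive, and 0.052 over the 18 without it, of which 12 were positive. The ranges overlapped, from -0.019 to 0.25 with the motif and from -0.14 to 0.43 without it, and no test was made. The 4 printed lysosomal members with matches all had positive differences. Ctsa, a lysosomal member whose promoters are not printed, held 2 matches of the longer TCACGTGA and had a difference of -0.0077.

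No member differed between the groups after adjustment over all genes. In limma, 0 of 34 members passed an adjusted p of 0.05, and over all genes 3 of 15089 did (0.0199%), none of them a member. At an unadjusted p under 0.05 in limma, 3 members were higher with ethanol, Ulk1, Map1lc3a and Ctsl, and 0 were lower. That is 8.824% of the members in the higher direction, close to the 7.97% of all genes that were higher on that rule, while 5.3% of all genes were lower and 13.3% called in both directions together. In 1 member, Map1lc3a, the values of the 2 groups did not overlap, with ethanol higher, against 3.05% of all genes without overlap and 1.94% with ethanol higher. Counts of members at the unadjusted threshold were thus near the background.

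The differences were small and mostly positive. The log2 difference was positive in 26 of 34 members (76.47%), against 56.4% of all genes, and its median was 0.059 over the members and 0.028 over all genes. The count of positive members depended on how the arrays were scaled: it was 20 under quantile normalization, where 46.25% of all genes were positive, and 22 when arrays were centred on their median, where 53.57% were. The largest member difference was that of Ulk1 at 0.43 and the lowest that of Gabarapl1 at -0.14. The precision limits what could be seen: the 95% interval of a member's difference had a median half-width of 0.22, a ratio of 1.16. With 5 mice per group, an observed difference smaller than this would not reach the unadjusted threshold for a typical member. The half-width is not a size above which shifts would be found after adjustment over all genes. Ulk1, at 0.43, had an adjusted p of 0.281 in limma.

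**Figure D1:**
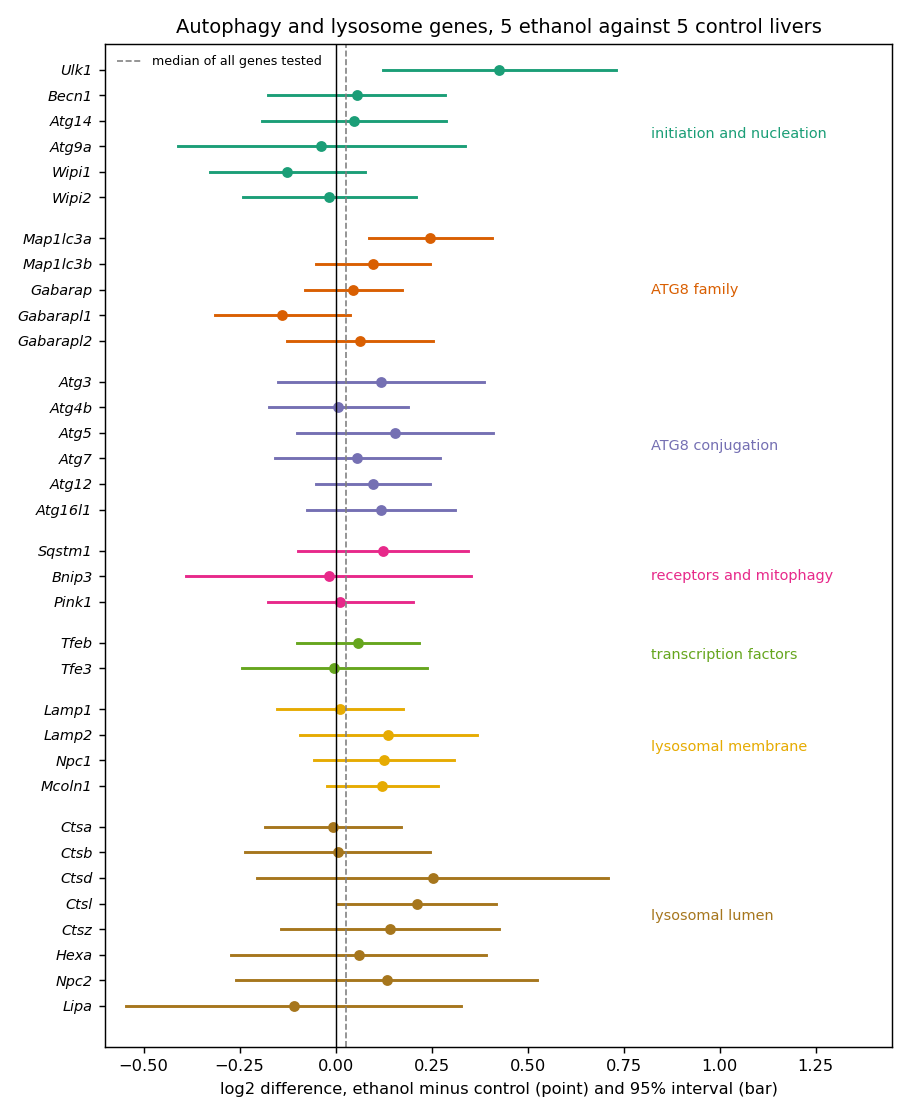
Log2 difference, ethanol minus control, of each of the 34 genes (points, horizontal axis) with its 95% interval from limma (bars), coloured by role, n = 5 mice per group; the dashed line is the median of all genes tested, 0.028. The intervals of Ulk1, Map1lc3a and Ctsl lie above 0 before adjustment, and the other 31 cross it.

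Arrays were not spread evenly over slides or over the columns of a slide. Column 4 held only control mice 1, 4 and 5, and column 1 held only ethanol mice 2 and 3. Column 2 held control mouse 2 and ethanol mouse 5, and column 3 held control mouse 3 and ethanol mice 1 and 4. Ethanol and slide column thus cannot be fully told apart. Slide 1 held control mice 4 and 5 and ethanol mouse 4, slide 2 held control mice 1 and 3, and slide 3 held control mouse 2 and ethanol mice 1, 2, 3 and 5. With the slide as a block, 26 members were again positive and 2 were higher at an unadjusted p under 0.05 in limma. Within slide 1 alone 23 members were positive, within slide 3 alone 19, and 17 members kept the sign of the whole comparison within both slides. Slide 1 held 1 ethanol mouse and slide 3 held 1 control mouse, so each value within a slide rests on a lone mouse in 1 group. Limma's p there assumes that this mouse varies like those of the other group. Slide 2 held no ethanol mouse, so a difference with the slide as a block combines the values within slides 1 and 3. It is not a separate estimate beside them.

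Among the 6 genes of initiation and nucleation, Ulk1 stood apart and the other 5 had differences between -0.13 and 0.054. Ulk1 encodes the kinase that starts autophagosome formation and is itself inhibited by mTOR. Levels are given throughout as log2 signal with the array's 75th percentile at 0, and on this scale Ulk1 read 4.20, 4.15, 4.10, 4.23 and 4.11 in control mice 1 to 5 and 4.09, 4.44, 4.81, 4.80 and 4.77 in ethanol mice 1 to 5. Ethanol mice 2 to 5 lay above every control mouse, and ethanol mouse 1 lay below them all, so the groups overlapped through 1 mouse. The mean was 4.16 ± 0.056 (SD, n = 5) in controls and 4.58 ± 0.32 (SD, n = 5) with ethanol. The difference was 0.43 ± 0.14 (SE), a ratio of 1.34, with a 95% interval from 0.12 to 0.73, an unadjusted p of 0.0107 and an adjusted p of 0.281 in limma. The exact two-sided permutation test over the 252 assignments of mice gave p = 0.0476 before any adjustment. With the slide as a block the difference was 0.50, within slide 1 it was 0.63 and within slide 3 it was 0.38.

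A second, much dimmer probe of Ulk1 ran the same way. It read -3.60, -4.38, -4.01, -3.93 and -4.23 in control mice 1 to 5 and -3.75, -3.12, -3.10, -2.92 and -3.20 in ethanol mice 1 to 5. Ethanol mice 2 to 5 were again above every control mouse, and ethanol mouse 1 again fell among the controls. The difference of this probe was 0.81 ± 0.18 (SE), with an unadjusted p of 0.00109 and an adjusted p of 0.233 over all 31110 kept probes in limma.

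The other initiation genes did not separate the groups. Becn1, the core of the lipid kinase complex that nucleates the membrane, differed by 0.054 ± 0.10 (SE), and Atg14, the subunit that takes this complex to the site of autophagosome formation, by 0.048 ± 0.11 (SE). Atg9a, the membrane protein whose vesicles seed the autophagosome, differed by -0.037 ± 0.17 (SE). Wipi1 and Wipi2 bind the lipid made by the BECN1 complex, and differed by -0.13 ± 0.091 (SE) and -0.016 ± 0.10 (SE). A dim second probe of Wipi1 differed by -0.40 ± 0.15 (SE), with an unadjusted p of 0.0237 and an adjusted p of 0.346 over all probes in limma, and was the only member probe lower at the unadjusted threshold. Over the 48 kept member probes 4 were higher on that rule, against 8.46% of all kept probes higher, 4.34% lower and 12.8% in both directions together.

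The ATG8 family are small ubiquitin-like proteins that are fixed to the autophagosome membrane. Map1lc3a, which encodes LC3A, gave 1.82, 1.70, 1.93, 1.97 and 1.82 in control mice 1 to 5 and 2.13, 2.18, 2.01, 2.05 and 2.10 in ethanol mice 1 to 5. Every ethanol mouse was above every control mouse, with control mouse 4 and ethanol mouse 3 the closest pair. The mean was 1.85 ± 0.10 (SD, n = 5) in controls and 2.09 ± 0.067 (SD, n = 5) with ethanol. The difference was 0.25 ± 0.072 (SE), a ratio of 1.19, with an unadjusted p of 0.00632 and an adjusted p of 0.243 in limma. The exact two-sided permutation test gave p = 0.00794, the smallest this design allows, before any adjustment. With the slide as a block the difference was 0.29, within slide 1 it was 0.16 and within slide 3 it was 0.40.

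Map1lc3b, which encodes LC3B, the form followed in most autophagy assays, differed by 0.097 ± 0.067 (SE), and its second probe by 0.14 ± 0.088 (SE). Gabarap and Gabarapl2 belong to the other branch of the family and differed by 0.046 ± 0.057 (SE) and 0.063 ± 0.086 (SE). Both had negative values under quantile normalization, at -0.060 and -0.017. Gabarapl1 was the member with the most negative difference, -0.14 ± 0.079 (SE), with an adjusted p of 0.448 in limma. It read 8.05, 8.23, 8.13, 8.08 and 8.03 in control mice 1 to 5 and 7.90, 8.16, 7.90, 8.01 and 7.86 in ethanol mice 1 to 5. Ethanol mice 1, 3, 4 and 5 lay below every control mouse and ethanol mouse 2 lay above 4 of them, and the second probe of the gene gave 0.022 ± 0.12 (SE), of the opposite sign.

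**Figure D2:**
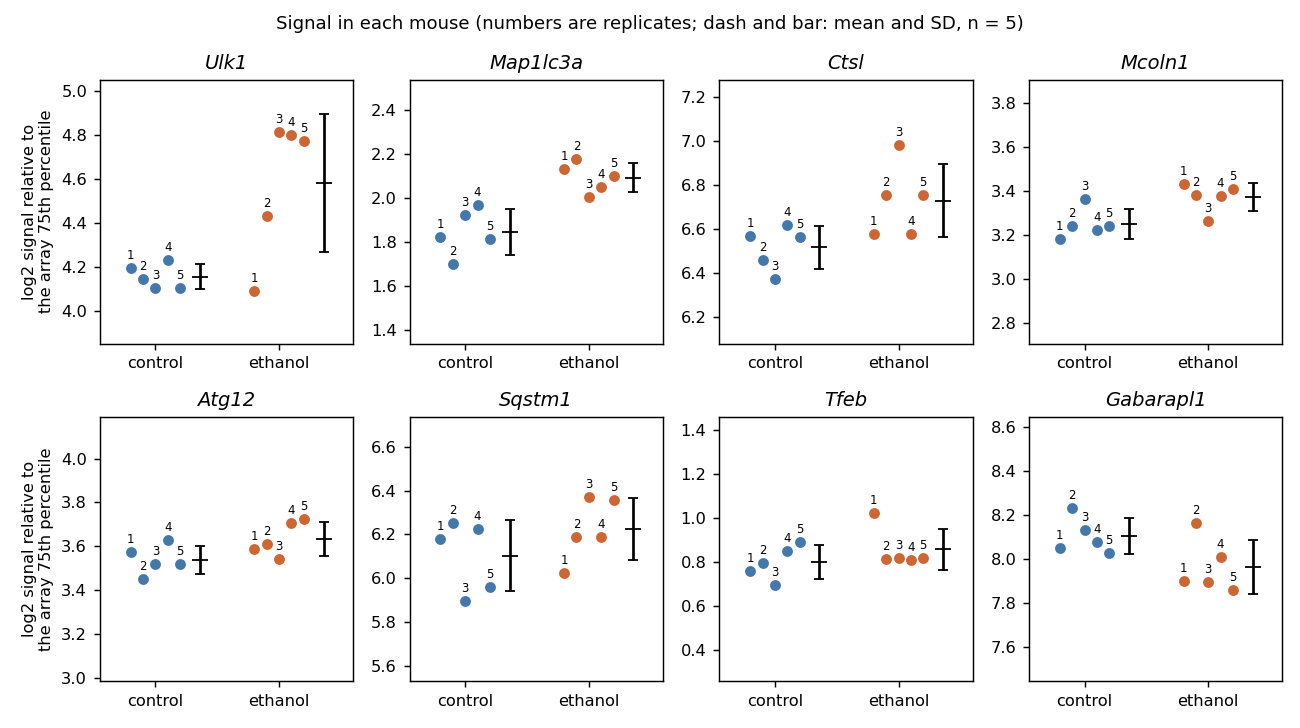
Log2 signal with the array's 75th percentile at 0 (vertical axis) in each control (blue) and ethanol (orange) mouse for 8 genes; numbers are replicates, and the dash and bar give the mean and SD of 5 mice. Only Map1lc3a has no overlap between groups, and ethanol mouse 1 lies with the controls for Ulk1 and above the other 4 ethanol mice for Tfeb.

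The 6 genes of the conjugation machinery all had positive differences, from 0.0073 to 0.15, with a median of 0.11, and none reached an unadjusted p of 0.05. The count of positive genes was 5 of 6 under quantile normalization, 5 of 6 with arrays centred on their median, 6 within slide 1 and 3 within slide 3. Atg12, the ubiquitin-like protein joined to ATG5, had the lowest p of the group and read 3.57, 3.45, 3.52, 3.63 and 3.52 in control mice 1 to 5. It read 3.59, 3.61, 3.55, 3.71 and 3.72 in ethanol mice 1 to 5. Ethanol mice 4 and 5 were above every control mouse and the other 3 lay among the controls. The difference was 0.097 ± 0.067 (SE), with an adjusted p of 0.520 in limma.

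Atg5, the partner of ATG12, differed by 0.15 ± 0.11 (SE), and Atg16l1, which brings the ATG12-ATG5 pair to the membrane, by 0.12 ± 0.087 (SE). Atg7, the enzyme that activates ATG12 and the ATG8 proteins, differed by 0.057 ± 0.097 (SE), and Atg3, which passes ATG8 proteins to their lipid, by 0.12 ± 0.12 (SE). Atg4b, the protease that trims ATG8 proteins before they are attached, differed by 0.0073 ± 0.082 (SE) on its brighter probe. Its dimmer probe had a mean of -1.23 in controls and -0.89 with ethanol, where mice ran from -1.03 to -0.69. On that probe all ethanol mice were above all controls, and the difference was 0.34 ± 0.083 (SE) with an unadjusted p of 0.00217 and an adjusted p of 0.251 over all probes in limma. The 2 probes of Atg4b thus gave unlike sizes, and which transcripts each reads was not examined.

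The receptor Sqstm1, also known as p62, binds ubiquitin-marked cargo and is itself degraded by autophagy. It read 6.18, 6.25, 5.90, 6.23 and 5.96 in control mice 1 to 5 and 6.03, 6.19, 6.37, 6.19 and 6.36 in ethanol mice 1 to 5. Ethanol mice 3 and 5 lay above every control mouse and the other 3 lay among the controls. The difference was 0.12 ± 0.10 (SE), with an adjusted p of 0.589 in limma, and was -0.018 within slide 3. Bnip3, a receptor on the outer membrane of mitochondria, differed by -0.019 ± 0.17 (SE), and Pink1, the kinase that marks damaged mitochondria for removal, by 0.012 ± 0.085 (SE).

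Neither transcription factor differed by more than its error. Tfeb read 0.76, 0.80, 0.70, 0.85 and 0.89 in control mice 1 to 5 and 1.03, 0.82, 0.82, 0.81 and 0.82 in ethanol mice 1 to 5. Ethanol mouse 1 was above every other mouse and the remaining 4 ethanol mice lay within the control range. The difference was 0.058 ± 0.071 (SE), with an adjusted p of 0.735 in limma, and 1 of its 3 dimmer probes had the opposite sign, at -0.084 ± 0.088 (SE). Tfe3 differed by -0.0040 ± 0.11 (SE). The activity of both proteins is set largely by where they sit in the cell, which an array does not read.

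The 4 genes of lysosomal membrane proteins had positive differences, from 0.011 to 0.14, of which 3 of 4 stayed positive under quantile normalization, with arrays centred on their median and within slide 3. Mcoln1, the calcium channel of the lysosome, had the lowest p of the group. It read 3.18, 3.24, 3.36, 3.22 and 3.24 in control mice 1 to 5 and 3.43, 3.38, 3.26, 3.38 and 3.41 in ethanol mice 1 to 5. Ethanol mice 1, 2, 4 and 5 were above every control mouse, and the groups overlapped because control mouse 3 lay above ethanol mouse 3. The difference was 0.12 ± 0.065 (SE), with an adjusted p of 0.428 in limma, and the exact two-sided permutation test gave p = 0.0159 before adjustment. It was 0.14 within slide 1 and 0.13 within slide 3.

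Lamp1 and Lamp2 encode the most abundant proteins of the lysosomal membrane, and LAMP2 also serves as receptor of chaperone-mediated autophagy. Lamp1, the member with the most CACGTG matches, differed by 0.011 ± 0.073 (SE), with a second probe at 0.048 ± 0.084 (SE). Lamp2 differed by 0.14 ± 0.10 (SE). Npc1, which carries cholesterol out of the lysosome, differed by 0.13 ± 0.083 (SE).

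The 8 genes of the lysosomal lumen varied more among the ethanol mice than among the controls. The SD was larger with ethanol in 7 of the 8, with a median SD of 0.11 in controls and 0.28 with ethanol. Over all members the SD was larger with ethanol in 26 of 34 (76.47%), against 59.36% of all genes. Ethanol mice 2 and 3 had the lowest ethanol values of Ctsb, Ctsd, Ctsz, Hexa, Npc2 and Lipa, though not of Ctsa or Ctsl. These mice were the arrays in slide column 1, where no control array lay. A wider spread with ethanol thus cannot be told apart from the position on the slide. The difference in spread was not tested.

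Ctsl, the cysteine protease cathepsin L, read 6.57, 6.46, 6.37, 6.62 and 6.57 in control mice 1 to 5 and 6.58, 6.75, 6.98, 6.58 and 6.75 in ethanol mice 1 to 5. Ethanol mice 2, 3 and 5 were above every control mouse, and ethanol mice 1 and 4 lay just below the highest control. The difference was 0.21 ± 0.093 (SE), a ratio of 1.16, with an unadjusted p of 0.0452 and an adjusted p of 0.366 in limma. The exact two-sided permutation test gave p = 0.0397 before adjustment. The difference was -0.012 within slide 1, which held 1 ethanol mouse and 2 controls, and 0.31 within slide 3, and an unadjusted p under 0.05 remained in 10 of 28 alternative ways of processing. With quantile normalization the difference was 0.080.

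Ctsd, the aspartic protease cathepsin D, read 5.74, 5.61, 5.59, 5.61 and 5.53 in control mice 1 to 5 and 6.35, 5.42, 5.35, 5.82 and 6.40 in ethanol mice 1 to 5. Ethanol mice 1, 4 and 5 were above every control mouse, and ethanol mice 2 and 3 were below every control mouse. The difference was 0.25 ± 0.21 (SE), with an adjusted p of 0.589 in limma. Ethanol mice 2 and 3 were the arrays in column 1 of their slide, where no control array lay, and without them the difference was 0.58, while without ethanol mouse 5 it was 0.12.

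Other lumen genes split the ethanol mice in a like way. Lipa, the lysosomal acid lipase that frees cholesterol and fatty acids, read 4.15, 4.32, 3.65, 4.12 and 3.90 in control mice 1 to 5 and 4.40, 3.54, 3.50, 3.92 and 4.23 in ethanol mice 1 to 5. Hexa, a subunit of beta-hexosaminidase, read 3.47, 3.12, 3.11, 3.30 and 3.19 in controls and 3.72, 3.09, 2.89, 3.31 and 3.47 with ethanol, in the same order. In both genes ethanol mouse 1 was above all controls and ethanol mice 2 and 3 were below all controls. The group differences were -0.11 ± 0.20 (SE) for Lipa and 0.060 ± 0.15 (SE) for Hexa. Ctsz, another cathepsin, differed by 0.14 ± 0.13 (SE), and Npc2, the soluble partner of NPC1 in moving cholesterol, by 0.13 ± 0.18 (SE). Ctsa, a carboxypeptidase that protects other hydrolases, differed by -0.0077 ± 0.080 (SE), and Ctsb, cathepsin B, by 0.0056 ± 0.11 (SE). The group differences of the lumen genes depended on whether the slide column entered the fit. With the column as a covariate, the differences were 0.10 for Lipa, 0.34 for Hexa, 0.31 for Ctsz and 0.49 for Npc2. Ctsa was then 0.073, Ctsb 0.10 and Ctsd 0.53, while Ctsl fell to 0.15. Npc2 was -0.18 within slide 1 and 0.59 within slide 3. The part of the slide column in these values was not tested.

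The median of the lumen genes was highest in the mice with the most signal from markers of lipid-associated macrophages, cells that gather around dying fat-laden hepatocytes. The median deviation of the 8 lumen genes from their means was 0.41 in ethanol mouse 1, 0.23 in ethanol mouse 5 and 0.11 in control mouse 1, the highest of the 10. It was -0.28 in ethanol mouse 3, -0.20 in control mouse 3 and -0.16 in ethanol mouse 2, the lowest. Ctsl did not follow this order, since it was highest in ethanol mouse 3 and lay slightly under its mean in ethanol mouse 1, by -0.046. The summed signal of 10 lipid-associated macrophage markers, in units of the array's 75th percentile, was 71.2, 24.9, 24.3, 42.9 and 41.1 in control mice 1 to 5 and 74.1, 11.8, 16.2, 17.9 and 92.5 in ethanol mice 1 to 5. The same 3 mice were highest in both measures, but the order of the other mice differed. Ethanol mouse 4 had a sum of 17.9 and a lumen median of 0.00029. Control mice 4 and 5 had larger sums, 42.9 and 41.1, but lower lumen medians, -0.0047 and -0.058. The lowest sum was that of ethanol mouse 2 and not of ethanol mouse 3, and the marker sums of the 2 groups overlapped. All 10 markers were tested, 8 of them had a negative group difference, their median difference was -0.53, and Gpnmb was well above background on 3 of 5 ethanol arrays. Of the 10 markers, Cd63 and Atp6v0d2 are also lysosomal genes, and Cd63 alone gave 49.0% of the sum in ethanol mouse 1, 44.0% in ethanol mouse 5, 37.9% in control mouse 1 and 25.8% to 35.7% in the other mice. Without these 2 genes, an alternative chosen after seeing the data, the sum was 37.6 in ethanol mouse 1, 51.7 in ethanol mouse 5 and 44.1 in control mouse 1, still the highest, and 8.65 to 30.6 in the other 7 mice. This sum gives most weight to its brightest genes, Spp1 and Fabp5. The mean log2 signal of Spp1 was 3.70 in controls and 2.61 with ethanol, and that of Fabp5 was 1.99 and 2.69. The difference of Fabp5, 0.70, ran against the median of the list. The part of these cells in the lumen genes was not tested, and in whole liver fewer cells of a type and less RNA per cell cannot be told apart.

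**Figure D3:**
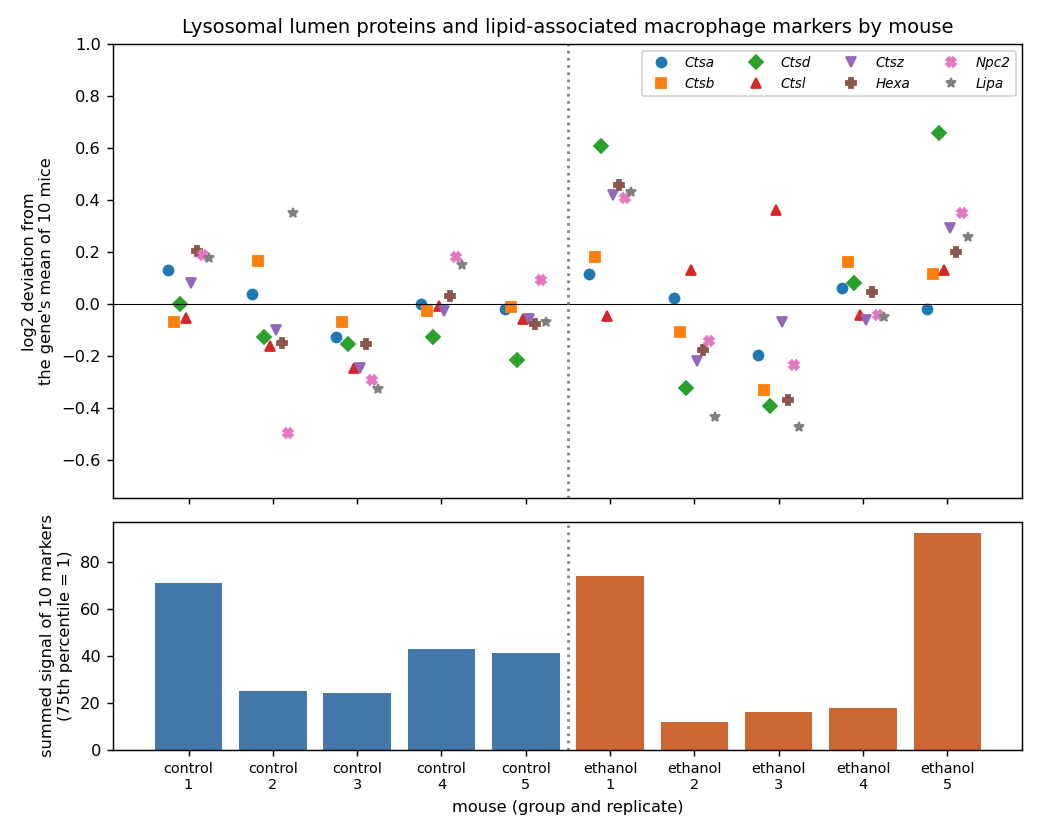
Upper panel, log2 deviation of each of the 8 lysosomal lumen genes from its mean over the 10 mice (vertical axis) in each mouse (horizontal axis); lower panel, summed signal of 10 lipid-associated macrophage markers in the same mice, with the array's 75th percentile as 1. Most lumen genes are high in ethanol mice 1 and 5 and low in ethanol mouse 3, where Ctsl is the exception, and the marker sum is 74.1 and 92.5 in the former and 16.2 in the latter.

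Other cell markers give the tissue and its makeup. The hepatocyte markers Alb and Ttr were well above background on all 10 arrays, and the summed signal of 10 such markers ran from 3118 to 3989 in controls and from 3268 to 3777 with ethanol. Sums of different lists rest on different probes and are not compared with each other. The summed signal of 15 macrophage and Kupffer cell markers ran from 78.0 to 133.2 in controls and from 70.6 to 139.1 with ethanol. The sum of 10 stellate cell markers was 88.1 to 117.5 in controls and 53.8 to 87.5 with ethanol, without overlap. This sum rests largely on Dcn, whose mean log2 signal was 6.15 in controls and 5.78 with ethanol. The next brightest, Col1a2, had 3.49 and 2.055. The median deviation of the 10 markers from their means gives each gene equal weight. It ran from 0.015 to 0.41 in controls and from -0.46 to 0.046 with ethanol, with overlap. Of the 10 stellate markers, 9 had a negative difference. At an unadjusted p under 0.05 in limma 7 were lower, against 5.3% of all genes. The largest in size was Col1a1 at -1.90 ± 0.45 (SE), with an adjusted p of 0.184 in limma. No spot on any array was saturated, and 55.5% to 59.1% of spots were well above background.

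The rest of the pathway was followed through 167 tested genes of 171 listed, in 7 lists. None passed an adjusted p of 0.05 in limma. At an unadjusted p under 0.05, 17 were higher with ethanol (10.18%, against 7.97% of all genes) and 3 were lower, against 5.3% of all genes. The median difference was 0.026 against 0.028 over all genes, so the median of the wider pathway was close to that of all genes.

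Among 15 other autophagy receptors and mitophagy genes, 4 were higher on the unadjusted rule (26.67%, against 7.97% of all genes). In the lower direction there were 0, against 5.3% of all genes. Fkbp8, a receptor on the mitochondrial outer membrane, read 4.23, 4.53, 4.47, 4.37 and 4.30 in controls and 4.68, 4.61, 4.56, 4.70 and 4.79 with ethanol, without overlap between groups. Its difference was 0.29 ± 0.080 (SE), with an adjusted p of 0.225 in limma, and 0.13 within slide 3. Stbd1, which tethers glycogen for delivery to lysosomes, differed by 0.37 ± 0.14 (SE), with an adjusted p of 0.318 in limma.

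Nutrient sensing genes above TFEB and the remaining autophagy machinery showed little. Of 25 tested nutrient sensing genes, 1 was higher on the unadjusted rule (4%, against 7.97% of all genes). It was Mtor, the kinase that holds ULK1 and TFEB in check. Mtor read 0.36, 0.11, -0.0030, 0.18 and 0.31 in control mice 1 to 5 and 0.48, 0.55, 0.30, 0.50 and 0.46 in ethanol mice 1 to 5, with ethanol mouse 3 among the controls. Its difference was 0.26 ± 0.088 (SE), with an adjusted p of 0.294 in limma. Zkscan3, described as a repressor of autophagy genes, differed by -0.13 ± 0.066 (SE), and Lamtor1, the anchor of the mTORC1 complex on lysosomes, by 0.13 ± 0.066 (SE). Of 31 other machinery genes, 1 was higher on that rule (3.226%, against 7.97% of all genes). It was Epg5, a tether of autophagosomes to lysosomes, at 0.16 ± 0.066 (SE) and without overlap between groups. Uvrag, an alternative partner of BECN1, differed by 0.16 ± 0.086 (SE), and Atg4a, a protease like ATG4B, by -0.21 ± 0.11 (SE).

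Of 40 tested other lysosomal hydrolases, 3 were higher (7.5%) and 2 lower on the unadjusted rule, against 7.97% and 5.3% of all genes. Gaa, the acid glucosidase that breaks down glycogen in lysosomes, read 4.58, 4.71, 4.62, 4.77 and 4.60 in control mice 1 to 5 and 4.81, 5.01, 4.89, 4.91 and 4.83 in ethanol mice 1 to 5. The groups did not overlap, and the difference was 0.23 ± 0.070 (SE), with an adjusted p of 0.250 in limma.

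Ctsk, cathepsin K, which degrades collagen, had the difference of largest size among the 167 tested genes of these lists. It read -0.99, -1.90, -1.71, -1.44 and -1.02 in control mice 1 to 5 and -1.90, -3.08, -3.13, -2.79 and -1.82 in ethanol mice 1 to 5. Ethanol mice 2, 3 and 4 were below every control mouse, ethanol mouse 1 was level with the lowest control and ethanol mouse 5 lay just above it. Ethanol mice 1 and 5 were also the 2 with the highest lipid-associated macrophage marker sums in their group. The difference was -1.13 ± 0.30 (SE), with an adjusted p of 0.216 in limma, and -0.59 within slide 3, -0.59 with the slide column as a covariate and -0.75 without ethanol mice 2 and 3. The stellate marker sum, which rests largely on Dcn, was also lower in every ethanol mouse than in every control mouse. The part of either cell type in the value of Ctsk was not tested.

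Acid hydrolases need a proton pump and a route from the Golgi. Of 18 vacuolar proton pump genes, 3 were higher (16.67%) and 1 was lower on the unadjusted rule, against 7.97% and 5.3% of all genes. Atp6v0b, a subunit of the membrane sector, had a mean of 2.57 ± 0.15 (SD, n = 5) in controls and 2.92 ± 0.19 (SD, n = 5) with ethanol. Ethanol mouse 2 was the only ethanol mouse below the highest control. Its difference was 0.35 ± 0.11 (SE), with an adjusted p of 0.260 in limma, and 0.23 within slide 1 and 0.57 within slide 3. Atp6v0d1, another subunit, differed by 0.27 ± 0.097 (SE) and had the opposite sign within slide 1, at -0.033. Atp6v0e2, a minor form of a membrane subunit, differed by -0.64 ± 0.23 (SE), and by -0.30 with the slide column as a covariate and -0.36 without ethanol mice 2 and 3.

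Of 17 genes for the delivery of enzymes to lysosomes, 3 were higher on the unadjusted rule (17.65%, against 7.97% of all genes). Gga2, an adaptor that loads mannose 6-phosphate receptors at the Golgi, read 0.69, 0.89, 1.03, 0.85 and 0.89 in control mice 1 to 5 and 1.11, 1.19, 1.17, 1.17 and 1.07 in ethanol mice 1 to 5. All ethanol mice were above all controls, and the difference was 0.27 ± 0.074 (SE), with an adjusted p of 0.216 in limma, 0.30 within slide 1 and 0.25 within slide 3. Gga1, a close relative, differed by 0.17 ± 0.072 (SE), and Vps33a, part of the tethering complexes of late endosomes, by 0.23 ± 0.10 (SE), with the opposite sign within slide 1 at -0.12. Of 21 tested other lysosomal membrane genes, 2 were higher on that rule (9.524%, against 7.97% of all genes). They were Laptm4b at 0.18 ± 0.062 (SE), without overlap between groups, and Sidt2 at 0.22 ± 0.079 (SE). Mfsd8, a transporter of the lysosomal membrane, differed by 0.27 ± 0.15 (SE).

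**Figure D4:**
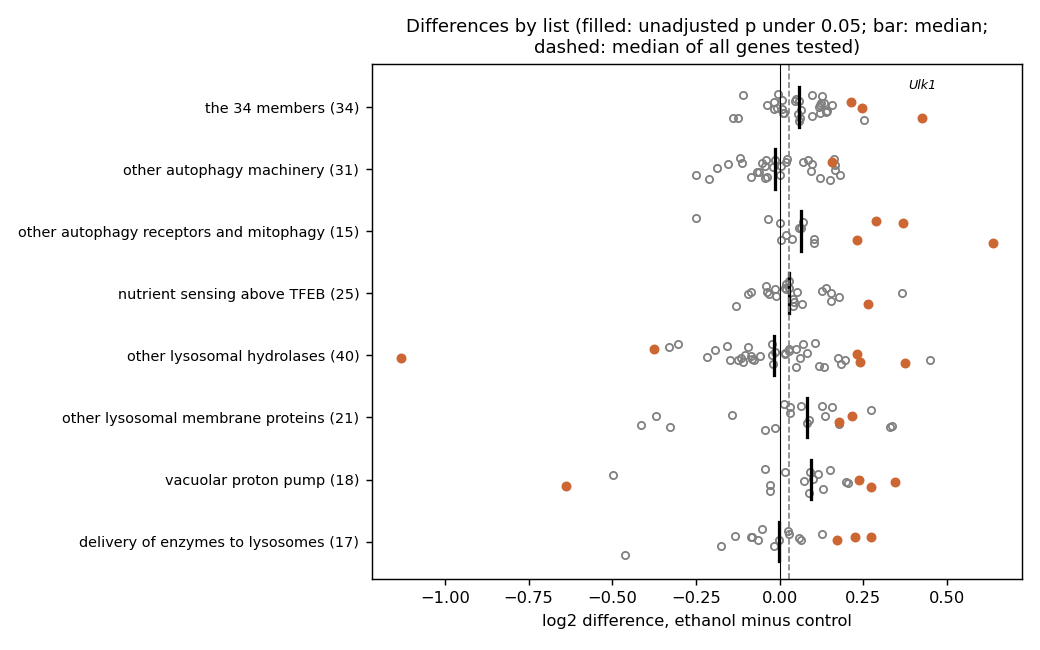
Log2 difference, ethanol minus control (horizontal axis), of each tested gene (points) in the set of 34 and in 7 lists of other autophagy and lysosome genes, with the number tested in brackets; filled points have an unadjusted p under 0.05 in limma, vertical bars are list medians and the dashed line is the median of all genes. Most points lie near 0, and the few beyond 0.4 in size at the unadjusted threshold include Ulk1 among the 34 and Ctsk and Atp6v0e2 among the other lists.

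The members differed in how far their values moved with the processing. Of 34 members, 10 kept the sign of their difference under all 28 alternatives, namely Ulk1, Wipi1, Map1lc3a, Map1lc3b, Gabarapl1, Atg3, Atg12, Atg16l1, Mcoln1 and Ctsd. The lowest adjusted p of any member under any alternative was 0.134 in limma, that of Ulk1, whose adjusted p ran up to 0.9995 over the alternatives. Ulk1 ranged from 0.35 with quantile normalization to 0.63 within slide 1 and had an unadjusted p under 0.05 in 26 of 28 alternatives, and Map1lc3a ranged from 0.16 within slide 1 to 0.40 within slide 3 and had one in 27 of 28. Ctsl had one in 10 of 28 and Mcoln1 in 4 of 28.

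**Figure D5:**
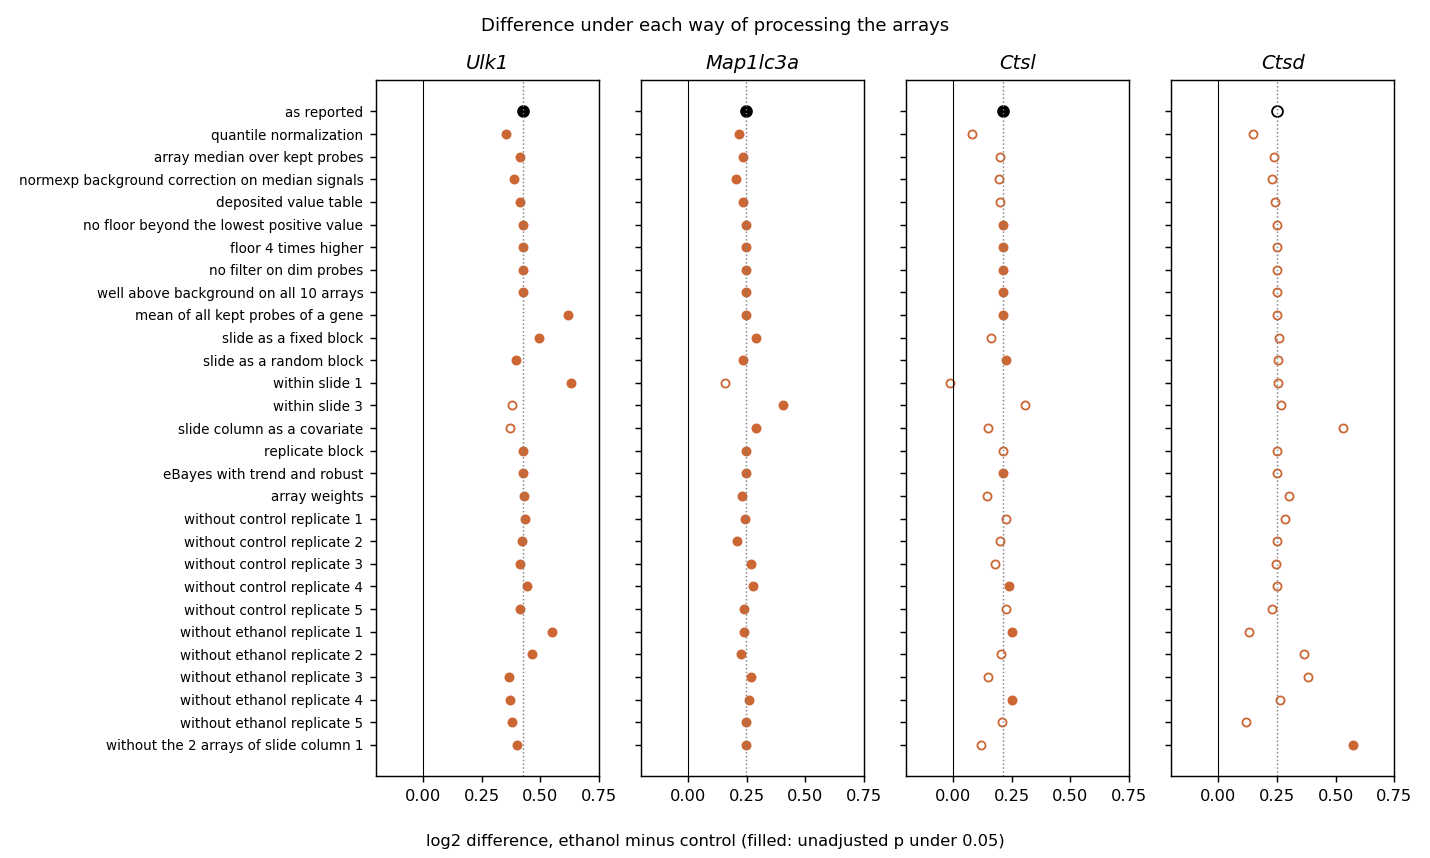
Log2 difference, ethanol minus control (horizontal axis), of Ulk1, Map1lc3a, Ctsl and Ctsd as reported (black, dotted line) and under each of 28 alternative ways of processing (orange, rows); filled points have an unadjusted p under 0.05. Ulk1 and Map1lc3a stay above 0 throughout, Ctsl reaches -0.012 within slide 1, and Ctsd is largest, at 0.58, without the 2 arrays of slide column 1.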

How the data were processed

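The authors deposited 1 scanner table per array with spot intensities on a linear scale, made with Agilent Feature Extraction 10.7.3.1, per the file headers, which name genome build mm9. They also deposited 1 table of log2 values, used as an alternative, whose differences between arrays match the main ones (r of 1 over 27809 probes per array), with column medians from -0.12 to 0.081 and a centring that stays unknown. Without control spots and spots flagged as outliers, processed intensities were scaled to each array's 75th percentile (279.9 to 387.4), floored at 4 units of an array with a percentile of 337.7 and log2 transformed. Probes well above background on at least 4 of 5 arrays of 1 group were kept (31110 of 56605). Accessions matched to RefSeq GRCm38.p6 named 32994 probes and left 23611 unnamed, and the brightest kept probe stood for each of 15089 genes.

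The comparison used limma 3.58.1 in R 4.3.3 with Benjamini-Hochberg adjustment over all genes, a step tested on simulated data. No covariate entered the main comparison. The members, the lists and the rule for genes given by mouse (an unadjusted p under 0.05, no overlap, or the lowest p of a role; 3 genes per other list) were chosen with earlier results of these data known, and Gabarapl1 and the dimmer probes were added for their values. Lumen genes given by mouse beside Ctsl, and other list genes given by mouse, were also picked after their values were seen, and some list genes are not reported here. The 28 alternatives changed scaling, background, floor, filter, probe rule, slide, variance model or arrays; leaving out both arrays of slide column 1 was chosen after seeing the data. The number of arrays limits the precision.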

Additional observations from a re-analysis of the deposited data

Results flagged for a closer look

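In 2 of 68 groups of 5 mice, 1 mouse stood apart from the other 4 by Dixon's test at the 95% level, and chance alone flags about 1 group in 20. Tfeb was 1.03 in ethanol mouse 1, against 0.81 to 0.82 in the other 4 ethanol mice, with a gap of 0.945 of the group's range. Ctsb was 7.17 in control mouse 2, against 6.94 to 7.00 in the other 4 control mice, with a gap of 0.744 of the range. Neither gene differed between the groups.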

How the results depend on the processing

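Over the 28 alternatives, 97 of 952 member values had the other sign, and a reversal was counted only where either value had an unadjusted p under 0.05. Within slide 1 the differences of Ctsl, Atp6v0d1 and Vps33a reversed to -0.012, -0.033 and -0.12. The median difference of the members fell from 0.059 to 0.016 with quantile normalization and 0.019 within slide 3. The median of all genes fell as well, from 0.028 to -0.015 with quantile normalization and -0.013 within slide 3. At an unadjusted p under 0.05 in limma, 1 member was lower with quantile normalization, the mean of all probes or the slide column as a covariate. It was 0 to 1 when single mice were left out. The count of all genes past the adjusted threshold in limma, 3 as reported, was 7 with normexp on median signals and with eBayes with trend and robust, 5 with a higher floor, 12 with the slide as a random block and 14 with array weights. It was 0 with no filter on dim probes, the slide fixed, the slide column as a covariate, the replicate block, or within slide 1 or slide 3, where 2406, 806, 866, 2443, 2094 and 676 genes had an unadjusted p under 0.05. When single mice were left out it ran from 0 to 7. With the replicate block the median member difference was 0.059 and 2 members were higher at an unadjusted p under 0.05 in limma. The labels do not say that the replicate numbers pair the mice. Deviations of same-numbered mice correlated between -0.11 and 0.324, and 1 of 5 control arrays correlated best with its own number. Such correlations cannot decide whether the mice were paired. Of 21 genes that the rule took from the other lists 19 kept their sign throughout. Each within-slide p rests on 1 mouse in 1 group (ethanol in slide 1, control in slide 3), assumed to vary like the others. Low signals limit the dimmer probes, though every kept member probe was well above background on all 5 arrays of each group. Whether slides or slide columns caused any difference was not tested.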
